A study of Ciona robusta with 6 samples.

Results

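*Sema6* (KH2013:KH.C4.719), *EPH* (KH2013:KH.C1.404) and *Fgf20* (KH2013:KH.C14.70) are 3 of the 15232 KyotoHoya (KH) gene models counted in RNA-seq libraries of *Ciona robusta*, a tunicate. They were chosen by gene identifier, as genes named for a guidance cue, a guidance receptor and a growth factor. Earlier results of these data were known at that choice, so counts of how many of the 3 were called are a description. All 3 were among the 12253 genes that passed the filter on low counts, more than 1 CPM (counts scaled to a common library total) in at least 2 libraries. Genome positions and sequences of these gene models were not analysed here.

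Semaphorins of class 6 are membrane-bound cues that act through plexin receptors and steer migrating neurons and growing axons. Eph receptors are tyrosine kinases on the cell surface that bind ephrins on neighbouring cells, which in many animals makes cells adhere to or withdraw from each other. Fibroblast growth factors (FGFs) are mostly secreted ligands of FGF receptors, which act largely through the Ras and ERK kinase cascade. Bipolar tail neurons (BTNs) arise at the border of the neural plate, leave the epidermis, migrate along the tail and extend processes in opposite directions, and Neurog is the transcription factor that specifies them.

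The libraries came from cells of the BTN lineage, sorted at 9.5 h post-fertilization (hpf) and 20°C, with 2 libraries in each of 3 conditions. All embryos carried a plasmid with a red or blue fluorescent reporter driven by the BTN-lineage part of the *Neurog* promoter, and a second plasmid with that driver. The second plasmid encoded Neurog in *Neurog* > *Neurog*, Neurog fused to the WRPW repressor motif in *Neurog* > *Neurog:WRPW*, and the inert enzyme lacZ in the control, *Neurog* > *lacZ*. Labelled cells were sorted with no counterselection, plasmid uptake is mosaic, and the control lineage is by the study's account largely epidermis, with few BTNs. In such mixed cells, fewer cells of a type and less RNA per cell cannot be told apart.

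Totals ranged from 10315548 to 24499397 counts, lowest in the library labelled Neurog:WRPW replicate 2, which by the study's methods was also made from the fewest cells. The other Neurog:WRPW replicate was made from the most cells. The study raises this large difference as a possible reason for weaker statistical support in that condition. *Neurog* itself was at 3955 ± 28.6 CPM (SD, n = 2) in Neurog, 149.7 ± 57.5 CPM in the libraries labelled Neurog:WRPW and 112 ± 31.1 CPM in lacZ. It was raised in the Neurog libraries and not clearly in those labelled Neurog:WRPW, although the plasmid named in that label also encodes Neurog. The study left *Neurog* out of a comparison of its own because reads from the electroporated plasmids confound its counts. These counts therefore cannot settle either label, and every direction given below for Neurog:WRPW rests on its label. By the study's account both replicates of a condition are biologically independent, and p-values measure the spread between these libraries.

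*Sema6* was the most abundant of the 3 genes under Neurog and followed the label of the condition in both directions. The CPM values here were scaled by TMM, which corrects totals for differences in composition. *Sema6* was at 554 and 424 CPM in Neurog replicates 1 and 2, at 39.5 and 10.8 CPM in the libraries labelled Neurog:WRPW, and at 99.6 and 57.9 CPM in lacZ. Both Neurog libraries lay above and both libraries labelled Neurog:WRPW below the lacZ libraries, with no overlap between any pair of conditions. Of the genes tested, 18.6% were separated in this way with Neurog above lacZ, 13.7% with Neurog:WRPW below lacZ and 20.8% with Neurog above Neurog:WRPW. The share of genes with all 3 pairs of conditions apart was not computed. The counts behind these values were 10175 and 7553 in Neurog, 749 and 97 in the libraries labelled Neurog:WRPW and 1792 and 1320 in lacZ.

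*EPH* kept the order of *Sema6* over a narrower range. It was at 99.4 and 107.3 CPM in Neurog replicates 1 and 2, at 41.4 and 23.7 CPM in the libraries labelled Neurog:WRPW, and at 62.8 and 56.1 CPM in lacZ. No pair of conditions overlapped here either, and the highest library was 4.53 times the lowest, against 51.3 times for *Sema6*. The lowest count behind any of these values was 213, in the library labelled Neurog:WRPW replicate 2.

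*Fgf20* was high in the Neurog libraries alone. It was at 43.3 and 23.3 CPM in Neurog replicates 1 and 2, at 2.64 and 2.89 CPM in the libraries labelled Neurog:WRPW, and at 2.501 and 4.21 CPM in lacZ. Both Neurog libraries lay above the other 4, while the libraries labelled Neurog:WRPW fell inside the range of lacZ. Of the genes tested, 18.6% had both Neurog libraries above both of lacZ and 20.8% above both of Neurog:WRPW. The share with Neurog above all 4 was not computed. Outside Neurog its level rested on few reads, with counts of 50 and 26 in the libraries labelled Neurog:WRPW and 45 and 96 in lacZ, against 796 and 416 in Neurog.

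Levels of different genes can be compared only per length, as RPKM (CPM per kilobase of the gene model), for which the gene models are 4279 bases (*Sema6*), 3747 bases (*EPH*) and 2966 bases (*Fgf20*) long. In Neurog, *Sema6* was at 129.4 and 99.1 RPKM, *EPH* at 26.5 and 28.6 RPKM and *Fgf20* at 14.6 and 7.87 RPKM. In the libraries labelled Neurog:WRPW, *Sema6* was at 9.24 and 2.52 RPKM, *EPH* at 11.06 and 6.32 RPKM and *Fgf20* at 0.890 and 0.975 RPKM. In lacZ, *Sema6* was at 23.3 and 13.5 RPKM, *EPH* at 16.8 and 15.0 RPKM and *Fgf20* at 0.843 and 1.42 RPKM. *Fgf20* was thus the lowest of the 3 genes in each of the 6 libraries, whereas *Sema6* and *EPH* changed places. The level of *Sema6* over that of *EPH* was 4.88 and 3.46 in Neurog, 0.836 and 0.399 in the libraries labelled Neurog:WRPW and 1.39 and 0.905 in lacZ. *Sema6* exceeded *EPH* in both Neurog libraries, fell short of it in both libraries labelled Neurog:WRPW, and lay on either side of it in lacZ. The ratios did not overlap between conditions, though the gap between Neurog:WRPW (0.836) and lacZ (0.905) was narrow. How many gene pairs separate in this way was not computed. The level of *EPH* over that of *Fgf20* was 1.82 and 3.64 in Neurog, 12.4 and 6.48 in the libraries labelled Neurog:WRPW, and 19.9 and 10.5 in lacZ. With 2 libraries against 2, the smallest two-sided p that an exact permutation test can give is 0.333, so these ratios are given without a test.

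**Figure D1:**
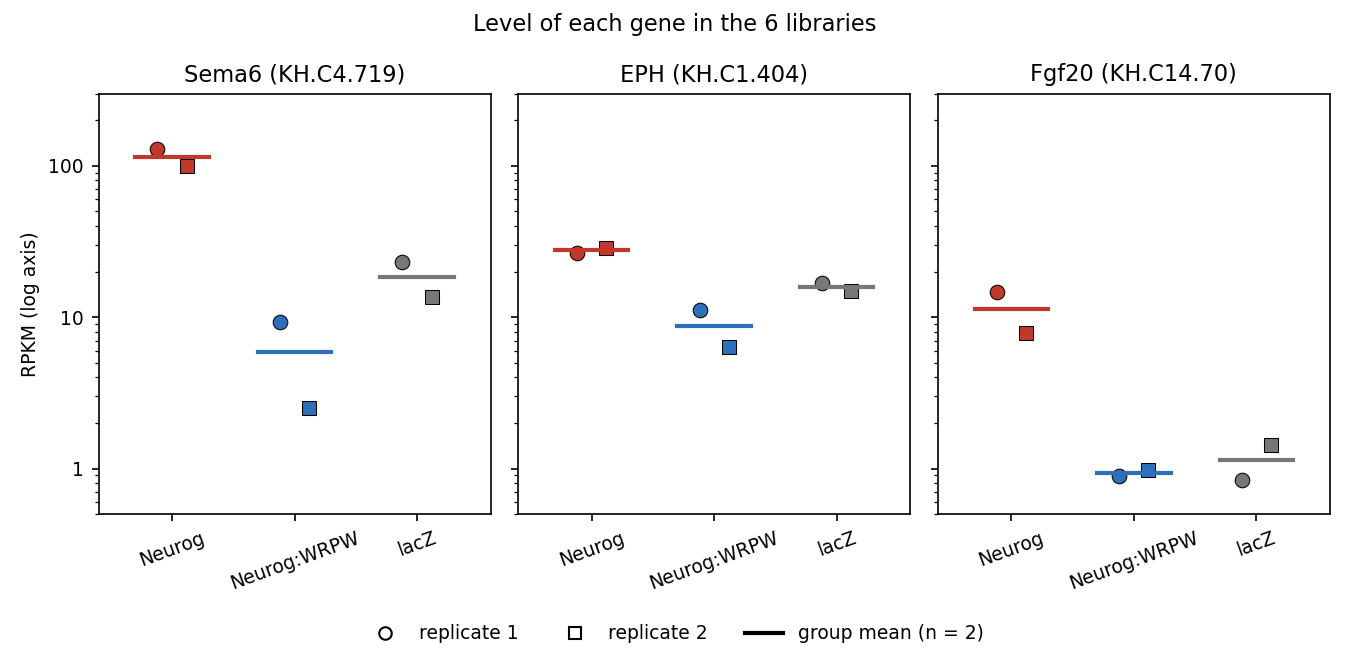
Level of *Sema6*, *EPH* and *Fgf20* in RPKM, on a log axis shared by the 3 panels, in the Neurog, Neurog:WRPW and lacZ libraries (circles, replicate 1; squares, replicate 2; lines, mean of 2 libraries). *Sema6* spans 2.52 to 129.4 RPKM and *EPH* 6.32 to 28.6 RPKM, each with 3 separate pairs, while the Neurog:WRPW and lacZ points of *Fgf20* lie together between 0.843 and 1.42 RPKM.

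The comparison of Neurog with lacZ asked which genes lie downstream of Neurog. A gene is called here where its LogFC, on the log2 scale, lies beyond 0.6 or -0.6 with an unadjusted p under 0.05, the study's thresholds, by edgeR's quasi-likelihood test. All 3 genes were called higher in Neurog, where 4.36% of the genes tested were called higher, or 6.64% in a fit with the replicate number as a block. Because the 3 genes were chosen with earlier results of these data known, their count beside these shares is no independent evidence. For *Sema6*, *EPH* and *Fgf20*, the block is given where it changes a call at an adjusted p of 0.05, and for counts where it moves them by over 1.5 times. In edgeR's quasi-likelihood test without the block, no gene of 12253 passed an adjusted p of 0.05, and 771 had an unadjusted p under 0.05. In either direction, 179 passed the adjusted p in that test with the block. Without the block, 220 passed in DESeq2 and 157 by edgeR's exact test. Of the 179, 168 were higher in Neurog, which is 1.37% of the genes tested.

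*Sema6* rose 6.21-fold in Neurog, a LogFC of 2.63 (standard error 0.63, 95% interval 1.111 to 4.157). Its unadjusted p was 0.00518, with an adjusted p of 0.465 without the block and 0.0242 with it, by Benjamini-Hochberg adjustment over all genes tested. Within replicate numbers the rise was 5.56-fold in replicate 1 and 7.32-fold in replicate 2. Only 0.996% of the genes tested had a higher LogFC.

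*Fgf20* rose 9.88-fold, the largest rise of the 3 genes, a LogFC of 3.30 (standard error 0.47, 95% interval 2.18 to 4.43). Its unadjusted p was 0.000313, with an adjusted p of 0.202 without the block and 0.0271 with it. It ranked 44 of 12253 genes by LogFC. Unlike *Sema6*, its rise was larger in replicate 1 (17.3-fold) than in replicate 2 (5.54-fold), since replicate 1 had the higher level in Neurog and the lower level in lacZ.

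*EPH* rose 1.74-fold, a LogFC of 0.80 (standard error 0.31, 95% interval 0.04 to 1.56). Its unadjusted p was 0.0422, and its adjusted p was 0.749 without the block and 0.226 with it, so that it passed the adjusted p in neither fit. Of the genes tested, 9.03% had a higher LogFC. The rise was 1.58-fold in replicate 1 and 1.91-fold in replicate 2, and the call was lost without any 1 of the Neurog or lacZ libraries, where the unadjusted p was 0.0723 without Neurog replicate 1, 0.123 without Neurog replicate 2, 0.0938 without lacZ replicate 1 and 0.161 without lacZ replicate 2.

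**Figure D2:**
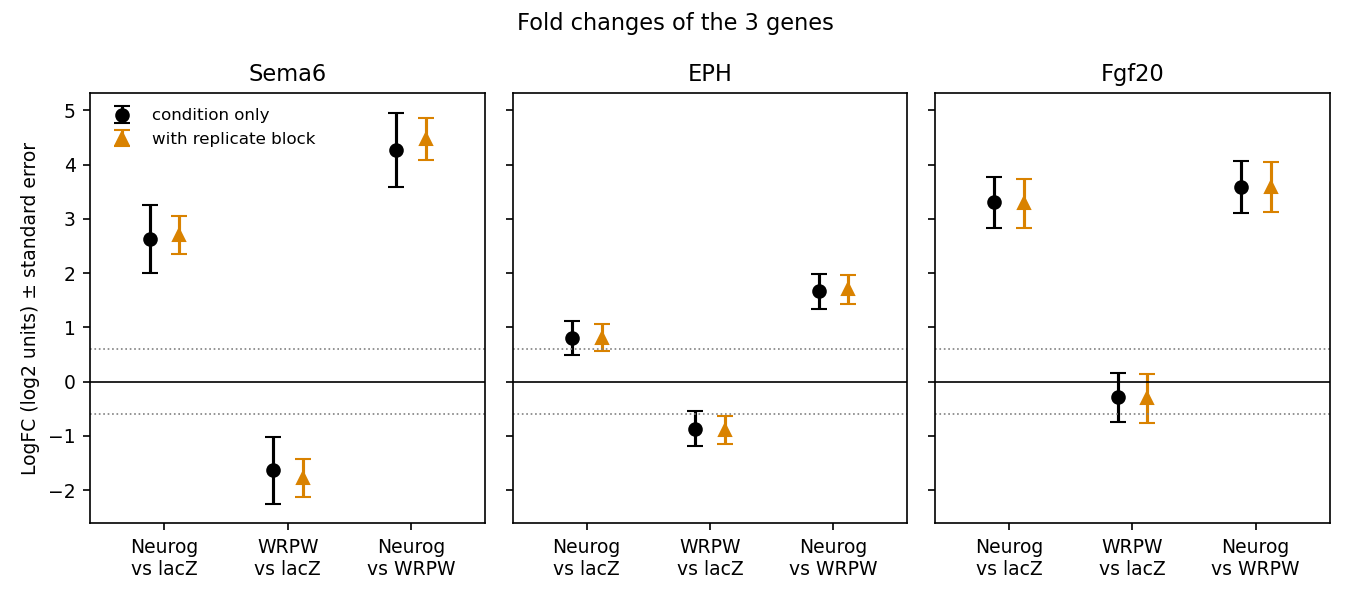
LogFC in log2 units with its standard error for *Sema6*, *EPH* and *Fgf20* in the 3 comparisons, from the fit of the condition alone (circles) and from the fit with the replicate block (triangles); dotted lines mark 0.6 and -0.6. *Sema6* and *EPH* lie above 0 in Neurog vs. lacZ and below 0 for Neurog:WRPW, and *Fgf20* at 3.30 and -0.29.

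The comparison of Neurog:WRPW with lacZ asked which genes of the control lineage fall when targets of Neurog are repressed. *Sema6* and *EPH* were called lower and *Fgf20* was not, where 1.19% of the genes tested were called lower, or 3.55% with the block. No gene passed an adjusted p of 0.05 in edgeR's quasi-likelihood test with or without the block, 191 had an unadjusted p under 0.05, and 4 passed the adjusted p in DESeq2 and 2 by edgeR's exact test.

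*Sema6* fell to 0.322 of its lacZ level in the libraries labelled Neurog:WRPW, a LogFC of -1.64 (standard error 0.61, 95% interval -3.11 to -0.16). Its unadjusted p was 0.0350 and its adjusted p 1.00. The ratio was 0.397 in replicate 1 and 0.186 in replicate 2. With the block the LogFC was -1.78 (standard error 0.35). The quasi-likelihood test then gave an unadjusted p of 0.00177 and an adjusted p of 0.392. The fits that follow had no block. The call was lost without Neurog:WRPW replicate 2 (LogFC -0.99, unadjusted p = 0.0721) and without lacZ replicate 1 (LogFC -1.18, unadjusted p = 0.158). It was also lost, at a LogFC of -1.62 each, with only the 2 groups compared (unadjusted p = 0.0524), without Neurog replicate 1 (0.0527) and without Neurog replicate 2 (0.0539).

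*EPH* fell to 0.549 of its lacZ level, a LogFC of -0.86 (standard error 0.32, 95% interval -1.63 to -0.10). Its unadjusted p was 0.0322 and its adjusted p 1.00. The ratio was 0.659 in replicate 1 and 0.422 in replicate 2. With the block the LogFC was -0.89 (standard error 0.26). The quasi-likelihood test then gave an unadjusted p of 0.0120 and an adjusted p of 0.677. The fits that follow had no block. The call was lost without Neurog:WRPW replicate 2 (LogFC -0.52), lacZ replicate 1 (LogFC -0.76), lacZ replicate 2 (LogFC -0.94) or either Neurog library (LogFC -0.85 each), and with only the 2 groups compared (LogFC -0.85), at unadjusted p-values of 0.0507 to 0.136.

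*Fgf20* had a LogFC of -0.29 (standard error 0.45, 95% interval -1.37 to 0.80) with an unadjusted p of 0.545. Its ratio to lacZ was 1.06 in replicate 1 and 0.686 in replicate 2, and its LogFC was 0.14 without lacZ replicate 2. A fall as large as that of *EPH* lies inside the interval and was not detectable in these libraries.

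*Sema6* and *EPH* were among 58 genes called higher in Neurog and lower in Neurog:WRPW, both against the same lacZ libraries, which are 0.473% of the genes tested. With the block there were 173 such genes, 1.41%, and both genes were called in both comparisons in that fit too.

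In the direct comparison of Neurog with Neurog:WRPW, which does not use the lacZ levels, all 3 genes were called higher in Neurog, where 7.08% of the genes tested were called higher, or 10.1% with the block. At an adjusted p under 0.05, 0.0408% of the genes tested were higher without the block and 3.25% with it. *Sema6* was 19.3 times as high in Neurog, a LogFC of 4.27 (standard error 0.68, 95% interval 2.63 to 5.91), with an unadjusted p of 0.000617 and an adjusted p of 0.0924 without the block and 0.00301 with it. *EPH* was 3.17 times as high, a LogFC of 1.66 (standard error 0.32, 95% interval 0.89 to 2.44), with an unadjusted p of 0.00177 and an adjusted p of 0.133 without the block and 0.0227 with it. *Fgf20* was 12.06 times as high, a LogFC of 3.59 (standard error 0.48, 95% interval 2.44 to 4.75), with an unadjusted p of 0.000225 and an adjusted p of 0.0796 without the block and 0.0110 with it. In edgeR's quasi-likelihood test each gene passed the adjusted p with the block and missed it without. All 3 passed it without the block in 2 other tests. The adjusted p for *Sema6*, *EPH* and *Fgf20* was 1.15e-09, 0.000678 and 6.31e-09 in DESeq2. By edgeR's exact test it was 9.66e-07, 0.00279 and 3.57e-07. The log2 ratios in replicates 1 and 2 were 3.81 and 5.30 for *Sema6*, 1.26 and 2.18 for *EPH* and 4.04 and 3.01 for *Fgf20*.

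**Figure D3:**
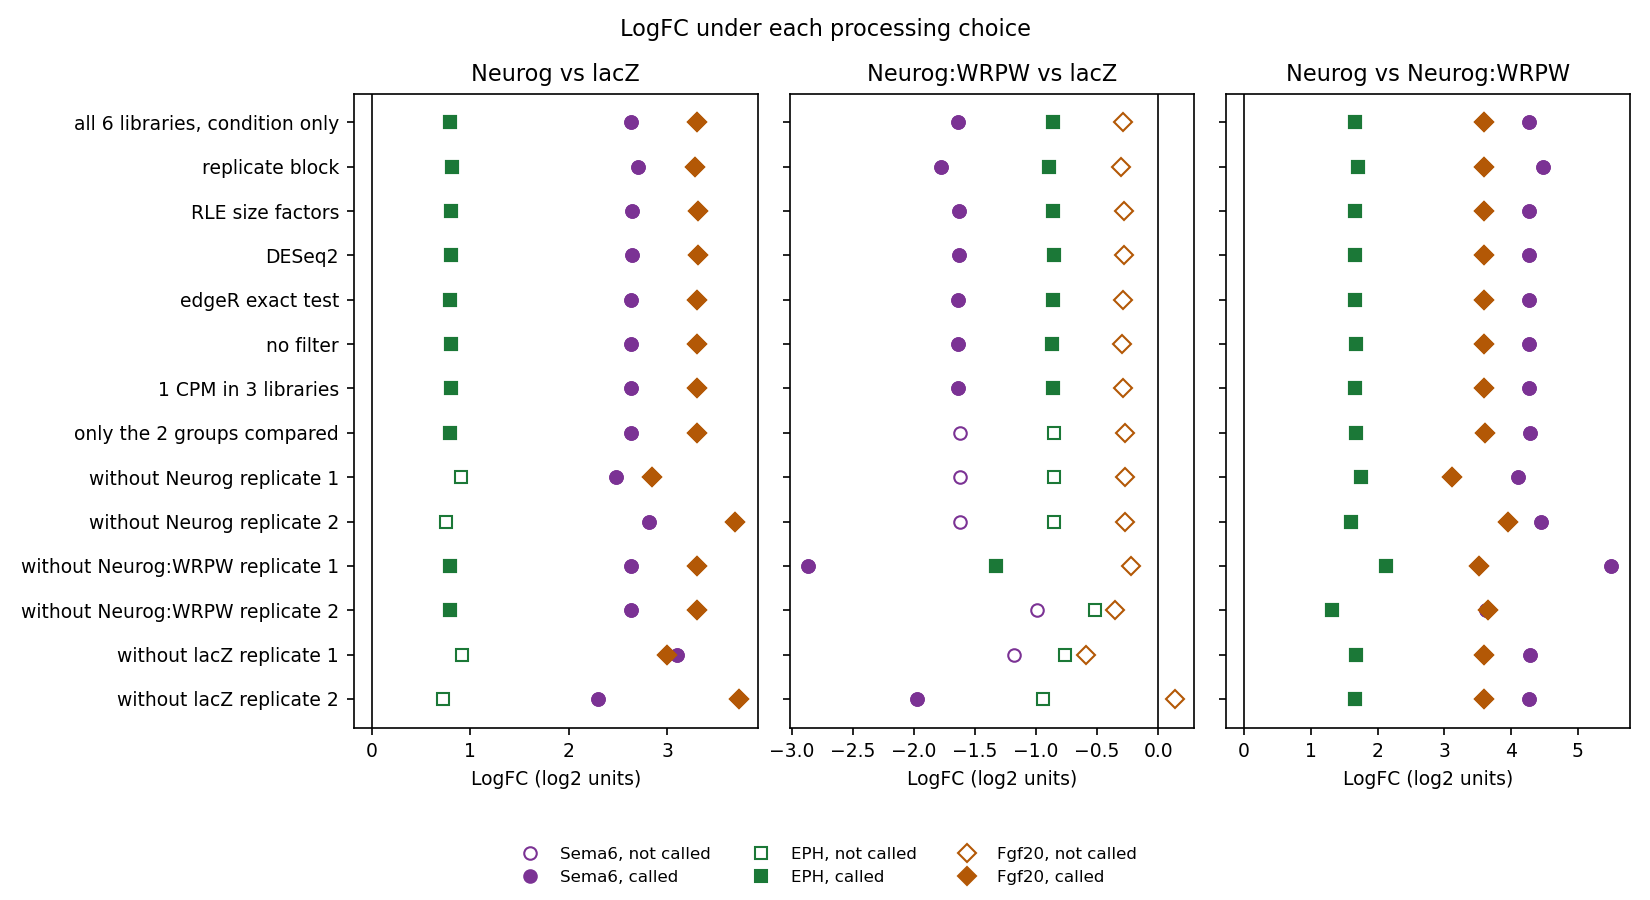
LogFC in log2 units of *Sema6* (circles), *EPH* (squares) and *Fgf20* (diamonds) in the 3 comparisons under 14 processing choices, listed down the page; filled symbols passed the LogFC of 0.6 with an unadjusted p under 0.05 and open symbols did not. In Neurog vs. lacZ the symbols of *Sema6* and *Fgf20* are all filled, while *EPH* is open in 4 lines, and in Neurog:WRPW vs. lacZ *Sema6* is open in 5 lines and *EPH* in 6.

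The summed level of 6 marker genes of these neurons (*Asic*, *Onecut*, *Dcx*, *Cdk5r*, *GAD* and *Slc18a3/VAChT*) was followed in the sorted cells. The study reports these markers as raised by Neurog. Their sum therefore follows the perturbation itself, and its order between conditions is no independent measure of BTN content. The sum was 2443 and 1279 CPM in Neurog, 167.0 and 68.15 CPM in the libraries labelled Neurog:WRPW and 473.7 and 233.8 CPM in lacZ. It separated the conditions in the order of *Sema6* and *EPH*, and it was higher in replicate 1 than in replicate 2 of every condition. Of the 6 markers, 5 were called higher in Neurog vs. lacZ (4.36% of all genes tested were) and 4 lower under the Neurog:WRPW label (1.19% were). *Slc18a3/VAChT* had 0 counts in the library labelled Neurog:WRPW replicate 2. A list of 13 genes that the study saw in tissues outside the central nervous system moved likewise, with a sum of 710.9 and 635.3 CPM in Neurog, 143.5 and 118.2 CPM in the libraries labelled Neurog:WRPW and 274.6 and 247.6 CPM in lacZ. Of that list 11 were called higher in Neurog vs. lacZ, while under the Neurog:WRPW label 7 were called lower and 1 higher. Of all genes tested, 4.36%, 1.19% and 0.318% were called in these ways. The study had picked the listed genes for in situ hybridization with these libraries in view, so their direction is no independent evidence. KH.C2.539 of that list had 0 counts in both libraries labelled Neurog:WRPW and *Slc22a4/5* in lacZ replicate 1. The part of either list in the changes of *Sema6*, *EPH* and *Fgf20* was not tested.

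Set against the BTN marker sum of the same library, the 3 genes parted. *Sema6* was 22.7% and 33.2% of the sum in Neurog, 23.7% and 15.8% in the libraries labelled Neurog:WRPW and 21.0% and 24.8% in lacZ. These shares overlapped between all conditions, and the highest was 2.1 times the lowest. *EPH* was 4.07% and 8.39% of the sum in Neurog, 24.8% and 34.7% in the libraries labelled Neurog:WRPW and 13.3% and 24.0% in lacZ, so that its order was the reverse of that of its CPM, without overlap. Any gene that changes less than the markers takes this reversed order by arithmetic. The LogFC of *EPH* in Neurog vs. lacZ was 0.80, beside a median of 2.37 over the 6 markers. How many genes reverse in this way was not computed. *Fgf20* was 1.77% and 1.83% of the sum in Neurog, 1.58% and 4.24% in the libraries labelled Neurog:WRPW and 0.528% and 1.80% in lacZ. Its 2 Neurog shares were nearly equal although its CPM differed between those libraries by 1.86 times, and its shares overlapped between all conditions. The markers did not differ alike between Neurog replicates 1 and 2, with *GAD* at 682.3 and 130.4 CPM and *Onecut* at 378.7 and 354.5 CPM. The near equality thus depends on which markers are summed. These shares were computed after the levels had been seen and carry no test.

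**Figure D4:**
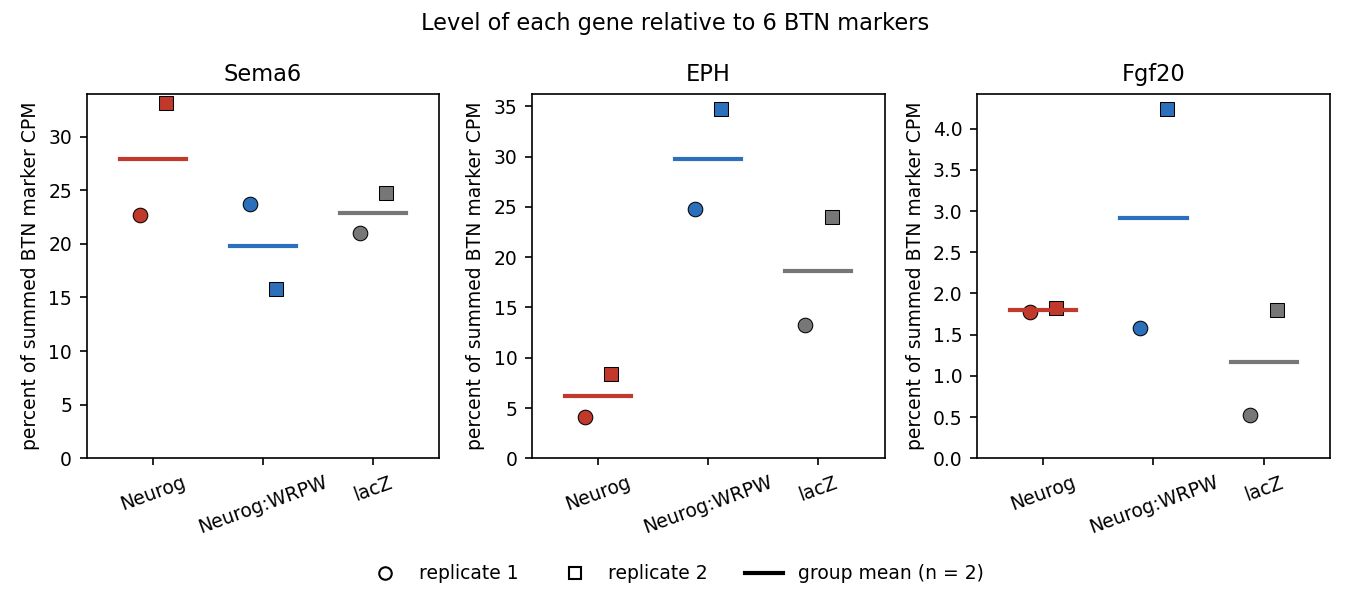
CPM of *Sema6*, *EPH* and *Fgf20* as a percentage of the summed CPM of 6 BTN markers in the same library (circles, replicate 1; squares, replicate 2; lines, mean of 2 libraries), in Neurog, Neurog:WRPW and lacZ, with axes that start at 0 and differ between panels. *Sema6* stays between 15.8% and 33.2%, whereas *EPH* is at 4.07% and 8.39% in Neurog and at 13.3% to 34.7% in the other libraries.

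Other genes of the same families and pathways were taken from the study's table of genes, of which only the first part, ordered by the LogFC in Neurog vs. lacZ, was at hand. Their positive LogFC in that comparison is therefore fixed by the choice. The other comparisons share its Neurog or lacZ libraries, so the counts and medians there are a description and not independent of the choice. Of these 15 genes, 8 were called higher in Neurog vs. lacZ (4.36% of all genes tested were), none lower (1.83% were) and 7 neither. Their median LogFC was 1.218 beside -0.03 over all genes tested. With the block 12 were called higher (6.64% of all genes tested were), and 4 passed an adjusted p of 0.05 (1.37% of all genes tested were higher at it). In Neurog:WRPW vs. lacZ 1 was called lower, *Daam* (1.19% of all genes tested were), and 14 neither, with a median LogFC of -0.39 beside -0.02 over all genes. With the block 2 were lower (3.55% of all genes tested were), none at an adjusted p of 0.05. In Neurog vs. Neurog:WRPW 10 were called higher (7.08% of all genes tested were) and 5 neither, with a median LogFC of 1.55 beside -0.04 over all genes. With the block 6 passed an adjusted p of 0.05 (3.25% of all genes tested were higher at it).

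The other genes annotated as semaphorins had smaller changes than *Sema6*, although no difference between genes was tested. KH.C10.17, whose best human matches are also *SEMA6* genes, was at 137.6 and 117.7 CPM in Neurog, 47.7 and 39.4 CPM in the libraries labelled Neurog:WRPW and 68.6 and 47.4 CPM in lacZ. It rose in Neurog vs. lacZ (LogFC 1.14, standard error 0.28), with an adjusted p of 0.475 without the block and 0.0450 with it, and had a LogFC of -0.41 in Neurog:WRPW vs. lacZ, which was not called. *SEMA3E*, named for a secreted semaphorin of vertebrates, was at 103.6 and 71.5 CPM in Neurog, 56.0 and 47.4 CPM in the libraries labelled Neurog:WRPW and 49.6 and 51.9 CPM in lacZ. It rose by a LogFC of 0.79 (standard error 0.27) in Neurog vs. lacZ, with an adjusted p of 0.637 without the block and 0.183 with it. Its LogFC in Neurog:WRPW vs. lacZ was 0.03. *Dpysl*, whose vertebrate counterparts (CRMPs) relay semaphorin signals to microtubules, was at 44.2 and 41.3 CPM in Neurog, 2.80 and 5.23 CPM in the libraries labelled Neurog:WRPW and 6.50 and 3.47 CPM in lacZ. Like *Fgf20*, it rose under Neurog, by a LogFC of 3.10 (standard error 0.46), with an adjusted p of 0.207 without the block and 0.0276 with it, and was not called against lacZ in the libraries labelled Neurog:WRPW (LogFC -0.33).

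Among the Eph genes, *EPHA3/5/7* was at 184.6 and 86.5 CPM in Neurog, 71.8 and 44.7 CPM in the libraries labelled Neurog:WRPW and 68.24 and 62.8 CPM in lacZ. It rose by a LogFC of 1.05 (standard error 0.42) in Neurog vs. lacZ, close to *EPH* at 0.80. The adjusted p of this rise was 0.765 without the block and 0.178 with it. Its LogFC of -0.17 for Neurog:WRPW vs. lacZ was not called. *EFNA1/2/3/4/5*, named for the ephrin ligands of Eph receptors, was at 10.23 and 19.9 CPM in Neurog, 8.13 and 8.78 CPM in the libraries labelled Neurog:WRPW and 9.06 and 8.25 CPM in lacZ, and was called in none of the 3 comparisons.

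Among the FGF genes, *FGF11/12/13/14*, whose vertebrate counterparts stay inside the cell and bind sodium channels, was at 123.7 and 30.6 CPM in Neurog, 4.75 and 0 CPM in the libraries labelled Neurog:WRPW and 27.3 and 8.08 CPM in lacZ. Its replicates were far apart, and its LogFC against lacZ, 2.13 under Neurog (standard error 1.27) and -2.77 under the Neurog:WRPW label (standard error 1.35), was called only with the block. *FLRT1/2/3*, named for membrane proteins that bind FGF receptors in vertebrates, was at 114.0 and 108.2 CPM in Neurog, 27.4 and 43.4 CPM in the libraries labelled Neurog:WRPW and 59.2 and 36.3 CPM in lacZ. It rose by a LogFC of 1.218 (standard error 0.35) in Neurog vs. lacZ, with an adjusted p of 0.542 without the block and 0.161 with it. Its LogFC of -0.44 in Neurog:WRPW vs. lacZ was not called.

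Of the remaining guidance genes, *Daam*, a formin gene of the actin cytoskeleton, was the one with calls in both directions, like *Sema6* and *EPH*. It was at 99.2 and 39.8 CPM in Neurog, 3.70 and 2.33 CPM in the libraries labelled Neurog:WRPW and 15.8 and 6.32 CPM in lacZ, with a LogFC against lacZ of 2.66 under Neurog (standard error 0.62) and -1.84 under the Neurog:WRPW label (standard error 0.63). The adjusted p of its rise was 0.448 without the block and 0.0131 with it. *SLIT2*, *ROBO1/2* and *CNTNAP2*, named for a guidance ligand, its receptor (although the best human matches of *ROBO1/2* are muscle proteins) and an adhesion protein, were at 8.53 CPM or less in each library and were called in none of the 3 comparisons, although *ROBO1/2* was called higher in Neurog vs. lacZ with the block.

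**Figure D5:**
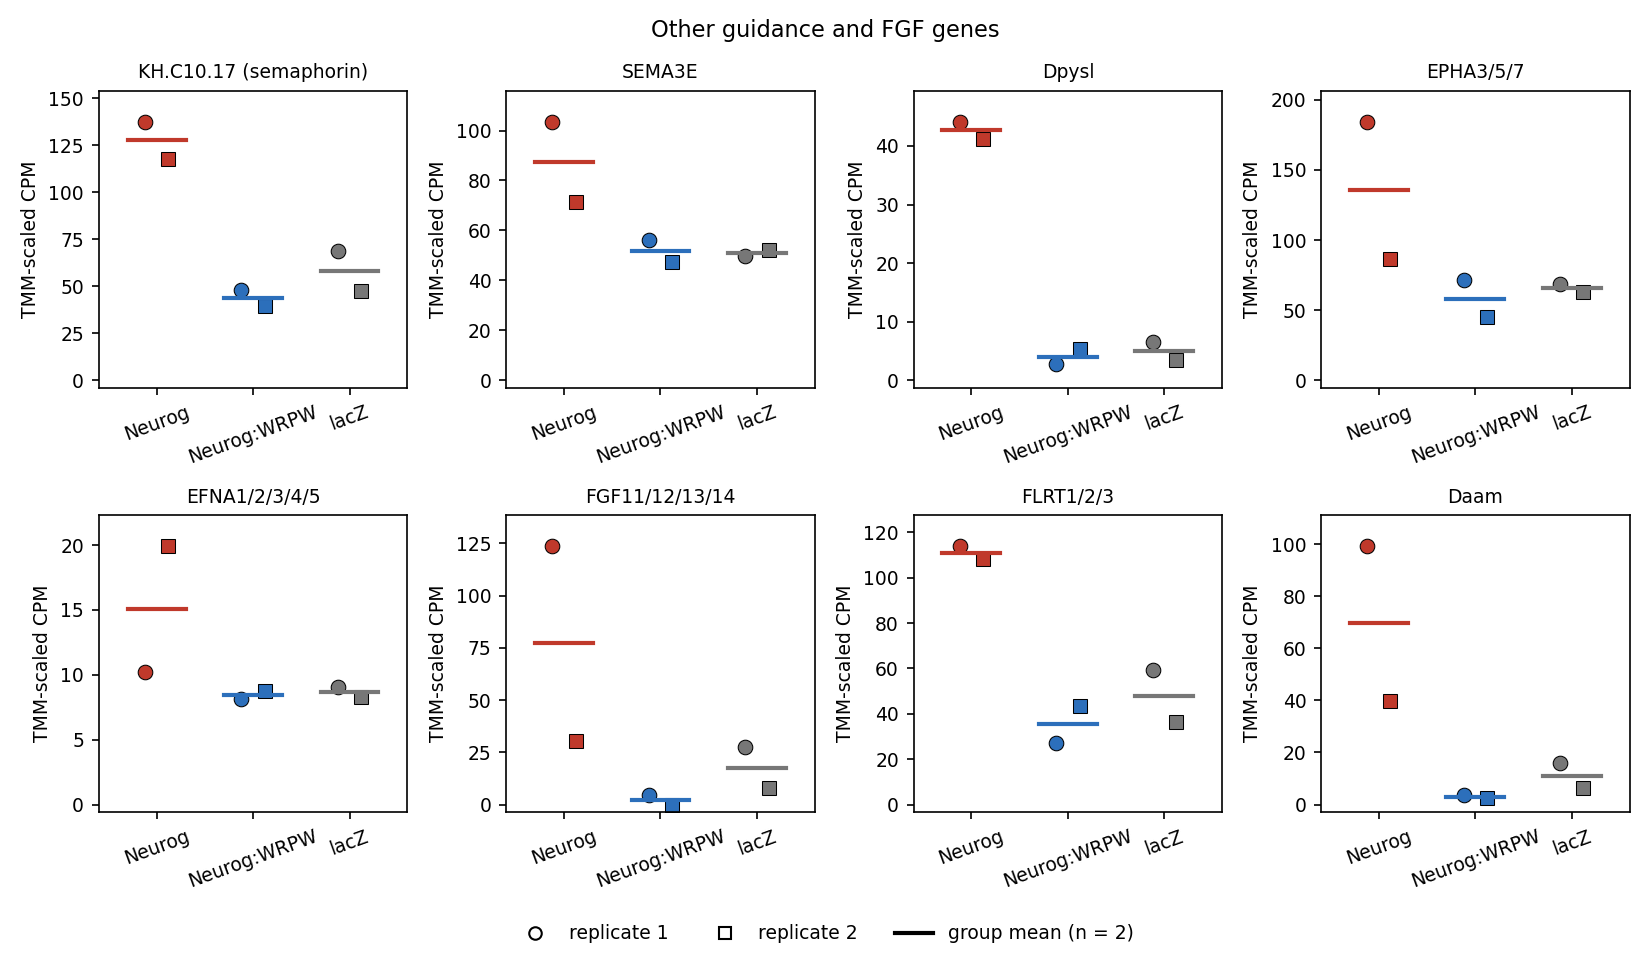
CPM of 8 other guidance and FGF genes in the Neurog, Neurog:WRPW and lacZ libraries (circles, replicate 1; squares, replicate 2; lines, mean of 2 libraries), with a linear axis of its own in each panel. *Dpysl* is at 44.2 and 41.3 CPM in Neurog and under 7 CPM elsewhere, and *FGF11/12/13/14* and *Daam* have replicates far apart in Neurog.

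The genes most like each of the 3 were found by Pearson's r of log2 CPM over the 6 libraries, given as a description, since the libraries form 3 conditions and any gene that separates them correlates. For *Sema6* they were *Gng*, a G protein gamma subunit gene (r = 0.999), KH.L171.13, whose best human matches are opsins (r = 0.997), and *Bhlh-tun2*, a basic helix-loop-helix factor gene (r = 0.997). *Gng* was at 158.3 and 102.8 CPM in Neurog, 10.7 and 3.56 CPM in the libraries labelled Neurog:WRPW and 28.3 and 16.3 CPM in lacZ. For *EPH* they were *Myh-tun3* (r = 0.996), a myosin heavy chain gene, *Insm* (r = 0.996), a zinc finger factor gene, and *Adra2* (r = 0.994), an adrenergic receptor gene. *Insm* had the order of *EPH* over a far wider range, with 20.9 and 23.9 CPM in Neurog, 1.48 and 0.334 CPM in the libraries labelled Neurog:WRPW and 5.50 and 3.12 CPM in lacZ. For *Fgf20* they were KH.L44.14 (r = 0.990) and KH.L116.90 (r = 0.989), which averaged 1.03 and 1.97 CPM, and *PTPRD* (r = 0.988), a receptor tyrosine phosphatase gene. *PTPRD* was at 215.3 and 176.0 CPM in Neurog, 113.1 and 103.3 CPM in the libraries labelled Neurog:WRPW and 112.4 and 119.3 CPM in lacZ. Of the 12252 other genes, 2.07% had an r over 0.95 with *Sema6*, 1.25% with *EPH* and 0.686% with *Fgf20*. Between the 3 genes, r was 0.984 for *Sema6* and *EPH*, 0.859 for *Sema6* and *Fgf20* and 0.788 for *EPH* and *Fgf20*.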

How the data were processed

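The data are 6 RNA-seq libraries, 2 per condition, grouped by their labels. The authors deposited raw counts per KH gene model, which they obtained from STAR 2.5.2b alignments with featureCounts after setting duplicate reads aside. The deposited table's other column used here, gene length in bases, gave RPKM. Assembly version and strand setting: not given in the sources used here. Genes that overlap, also in antisense, may therefore share reads.

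Genes over 1 CPM in at least 2 libraries (12253 of 15232) were scaled by TMM and fitted together, with condition as the only factor, by edgeR 4.0.16 (R 4.3.3) quasi-likelihood, with two-sided tests and Benjamini-Hochberg adjustment. The study names edgeR but not the test. The common biological coefficient of variation was 0.421. Intervals are 95%. Likeness used log2 CPM with a prior count of 2. Simulated counts in which 200 genes were changed served to test the scripts.

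The 3 conditions share replicate numbers, which no source calls a batch. Over 7969 genes, deviations of same-numbered libraries correlated at 0.56 (Neurog and lacZ), 0.61 (Neurog:WRPW and lacZ) and 0.54 (Neurog and Neurog:WRPW). They were taken to pair the libraries, from the data alone and with the calls of the block fit known.

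Named genes are the 3 genes, the semaphorin, Eph, ephrin and FGF genes of the list, and the 3 genes most like each. The other genes named were chosen after their values were seen. Members, lists and markers were chosen with earlier results of these data known. Alternatives were RLE size factors, DESeq2 1.42.0, edgeR's exact test, other filters, only the compared groups, the replicate block and leaving out each library.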

Additional observations from a re-analysis of the deposited data

How the results depend on the processing

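Each result was recomputed under 13 alternatives. In Neurog vs. Neurog:WRPW all 3 genes, and in Neurog vs. lacZ *Sema6* and *Fgf20*, kept their direction and call in all 13, with LogFC of 3.63 to 5.50 (*Sema6*), 1.32 to 2.13 (*EPH*) and 3.11 to 3.96 (*Fgf20*) in the first comparison and 2.30 to 3.10 (*Sema6*) and 2.84 to 3.73 (*Fgf20*) in the second. *EPH* in Neurog vs. lacZ ranged from 0.72 to 0.91 with 1 library left out, and its call was lost in 4 of those 6 fits. In Neurog:WRPW vs. lacZ, leaving out 1 library gave -2.87 to -0.99 for *Sema6* (call lost in 4 of 6) and -1.33 to -0.52 for *EPH* (lost in 5 of 6), and with only the 2 groups compared both calls were lost, at -1.62 and -0.85. *Fgf20*, not called there, ranged from -0.59 to 0.14, turning positive without lacZ replicate 2. The cause of these losses was not tested.

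Adjusted p-values depended on the tool and the block. Over the alternatives they ran from 0.00219 to 1.00 (*Sema6*), 0.226 to 1.00 (*EPH*) and 1.82e-07 to 1.00 (*Fgf20*) in Neurog vs. lacZ, from 0.361 (*Sema6*), 0.384 (*EPH*) and 0.934 (*Fgf20*) to 1.00 in Neurog:WRPW vs. lacZ, and from 1.15e-09 to 0.376 (*Sema6*), 0.000678 to 0.450 (*EPH*) and 6.31e-09 to 0.341 (*Fgf20*) in Neurog vs. Neurog:WRPW. The replicate block left every call of the 3 genes at the study's thresholds as it was. With this pairing the genes called higher in Neurog vs. lacZ numbered 813 in place of 534 (231 to 652 with 1 library left out), and those called lower in Neurog:WRPW vs. lacZ 435 in place of 146 (75 to 930 with 1 left out, and 97 with only the 2 groups compared). Those called higher in Neurog vs. Neurog:WRPW numbered 868, or 518 to 1460 with 1 left out. Outside Neurog, *Fgf20* had 26 to 96 counts per library.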
